A study of Mus musculus with 24 samples.

Results

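The genes described here are those of membrane traffic and of the vacuolar ATPase (V-ATPase), taken by their symbols: Rab GTPases, Vps proteins, sorting nexins, Sec proteins, COPI coat subunits, Arf GTPases, adaptor subunits, syntaxins, Vamp proteins, V-ATPase subunits and the Chmp proteins of ESCRT-III. Of 8315 named genes on the array, 172 had such a symbol, represented by 288 features. A total of 137 had at least 2 values on every day and were tested. They were measured in HBC-3 cells, a mouse hepatoblast line, at days 1 to 7 on Matrigel, a basement membrane gel on which the series follows their differentiation, and at day 0. Each of the 8 days had 3 arrays with the letters A to C, 24 in all. The Cy5 channel held amplified RNA of the sample and the Cy3 channel held amplified RNA of undifferentiated HBC-3 cells, so that at day 0 both channels held undifferentiated cells. Per the labels, the cells were freed of their STON+ feeder layer by trypsin and replating, and no other treatment is named. Values are log2 ratios, read as sample over undifferentiated reference. That reading of base and direction is likely but was not stated in any source at hand. The labels do not tell whether arrays that share a day are independent cultures, so the p-values here reflect array-to-array spread that may be purely technical.

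Newly made secretory and membrane proteins enter the endoplasmic reticulum (ER) through the Sec61 translocon, leave it in COPII-coated vesicles, and are returned from the Golgi by COPI. Material taken up at the cell surface passes through early endosomes, from which retromer, retriever and sorting nexins return cargo, while the ESCRT machinery sorts cargo into vesicles for degradation in lysosomes. Rab and Arf GTPases mark the compartments, SNAREs fuse them, and the V-ATPase, built from a cytosolic V1 sector and a membrane V0 sector, pumps protons into them. Hepatocytes secrete plasma proteins and endocytose heavily, and in polarised liver cells the recycling endosome supplies the canalicular surface. By these roles the tested members were divided into 79 endosomal, 35 secretory, 11 V-ATPase and 12 other genes.

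Several features of the arrays bear on every value below. Day 0 arrays A and C correlated at r = -0.357 over all genes and features tested, although both compared undifferentiated cells with undifferentiated cells, while A and B correlated at 0.779. The direction of the day 0 values is therefore not settled. For members past the threshold at day 1 or day 7 the outcome with those signs turned is given too. For most single genes on days 2 to 6, for markers and for traffic genes outside the symbol rule it is not given. The C arrays of days 4 to 7 stood apart, with correlations of 0.807 to 0.968 among themselves against 0.411 to 0.663 with the A and B arrays of those days. Day 6 array B was also apart, at 0.464 to 0.611 with the other A and B arrays of those days and 0.551 to 0.603 with the C arrays. The SD of log ratios was 0.332 to 0.473 at day 0 and 0.558 to 1.064 on the other days. As to the labelled cell type, 3 of 4 tested hepatoblast and hepatocyte genes (Afp, Igf2 and H19) were higher at day 7 than at day 0, and Apob was at -0.38 (adjusted p 0.116). There were 7 such genes on the array. Among the untested ones Krt8 had -1.11 to -0.54 on the later arrays with a value and -0.04 to 0.22 at day 0. Ttr and Epcam had too few values to be tested, and Alb was not among the 7. STO feeder cells are a mouse fibroblast line, and of the fibroblast markers 3 of 8 tested were higher at day 7 and 3 of 8 at day 1, each against day 0. The median of these 8 markers was 0.16 to 0.56 on day 7 arrays, 0.44 to 0.92 on day 1 arrays and -0.88 to 0.15 on day 0 arrays. It was highest at day 3, at 1.08 to 1.23. Of the markers of other cells, the ductal Anxa4 was higher at day 7 by 1.27 and the blood cell gene Tyrobp by 2.29 (adjusted p 0.000358 and 0.00757). Haemoglobin Hba-a1 was higher at day 1 by 1.33 (adjusted p 0.0189). Anxa4 was the 1 ductal marker tested of 3 on the array. The untested ductal Krt7 had 0.84, 0.69 and -0.15 at day 0 and -1.86 on day 7 array B. Its other values, on arrays of days 4 to 6, were -2.17 to 0.83. Krt19, also untested, had -0.68 and 0.10 on day 0 arrays B and C and -0.41, 0.15 and 0.66 at day 7. The part of all these markers in the results below was not tested, and in bulk RNA more cells of a type and more RNA per cell cannot be told apart.

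Traffic genes that changed were nearly all higher on Matrigel than at day 0. With limma and Benjamini-Hochberg adjustment over all 10639 genes and unnamed features, 8 of 137 members passed the threshold at day 1, against 10.9% of everything tested. Of these 7 were higher, against 4.99% of everything tested, and 1 was lower, against 5.92%. At day 2 the count was 19, against 17.1%, with 17 higher (9.05% of everything tested) and 2 lower (8.04%). At day 3 it was 33, against 24.4%, with 31 higher (12.2% of everything) and 2 lower (12.3%). At day 4, 31 were higher and 1 lower, where 22.2% of everything passed, 11.3% higher and 10.9% lower. At day 5, 33 were higher and 1 lower, where 22.9% passed, 11.7% higher and 11.2% lower. At day 6, 32 were higher and 5 lower, where 24.8% passed, 12.2% higher and 12.6% lower. At day 7, 33 were higher and 1 lower, which is 24.8% of the members against 27.6% of everything tested, 14.6% higher and 13% lower. The share of members past the threshold was thus near the background or below it, and the calls of the members lay almost all on one side. The median change of the members at day 7 was 0.35, against -0.009 over everything tested, and 97 of 137 members had a positive value. Over the 7 days, 52 members (38%) passed on at least 1 day, against 41.4% of everything tested. Of these 45 were higher, 7 were lower and 0 were higher on some days and lower on others. Of the 10639 genes and features tested, 2175 were higher on at least 1 day and 2238 lower, with 6 in both sets. On all of days 3 to 7, 22 members (16.1%) were higher, where 6.73% of everything tested was. Rab20, Rab31, Snx6, Snx33, Stx5a and Stx7 were higher on all 7 days. They are 4.38% of the members, near the 3.22% of everything tested.

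The counts rest in part on the day 0 arrays. With the day 0 signs turned, 18 members passed at day 7, and 14 of the 34 remained. These 14 were Atp6v0d1, Chmp4b, Rab11fip5, Rab22a, Rab31, Sec62, Snx33, Snx6, Snx9, Stx16, Stx17, Vps26a, Vps35l and Vps50. The day 7 calls of all other members named below did not hold with the signs turned. Against the reference channel instead of the day 0 arrays, 32 of the 34 remained. For days 2, 3, 4, 5 and 6 the counts were 9, 15, 17, 22 and 24 when day 0 array A was left out, and 9, 13, 18, 22 and 21 when B was. Day 2 also gave 9 without its array B and 11 without its array C, day 3 gave 13 without its array B, day 4 gave 19 without its array C and day 6 gave 20 without its array C. At day 7, 22 of the 34 passed without any 1 array. Leaving out day 0 array A ended the calls of Atp6v1d, Chmp1a, Chmp2b, Chmp5, Chmp7, Rab14, Stx5a and Vps41. Leaving out day 0 array B ended those of Atp6v1d, Chmp1a, Chmp2b, Chmp5, Chmp7, Rab14 and Snx4, and day 0 array C those of Rab32 and Snx4. Leaving out day 7 array C ended those of Atp6v1d, Chmp1a, Chmp2b, Chmp4b, Rab32, Snx4 and Vps41, day 7 array A those of Chmp7, Snx4 and Stx16, and day 7 array B that of Chmp1a. A set of 10 members passed at day 7 in every alternative that gave a value: Atp6v0d1, Rab22a, Rab31, Sec62, Snx33, Snx6, Snx9, Stx17, Vps35l and Vps50. At day 1, Rab31 alone did so.

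**Figure D1:**
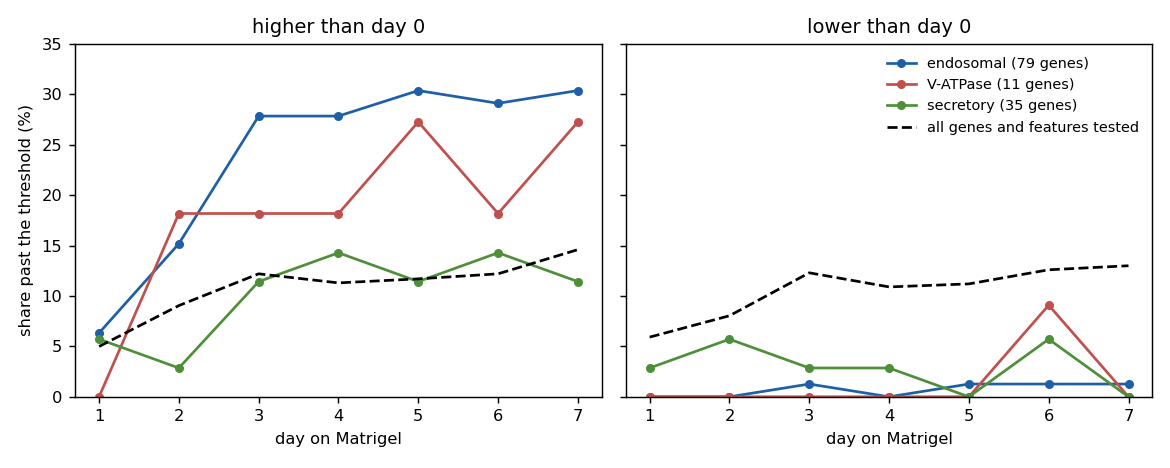
Share of the tested genes past the threshold (%) against day on Matrigel, higher than day 0 on the left and lower than day 0 on the right, for endosomal, V-ATPase and secretory members and, dashed, for all genes and features tested. From day 3 the endosomal line runs well above the dashed line on the left, the secretory line stays close to it, and few members of any class appear on the right.

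On Matrigel the median endosomal member stood above the median secretory member. The median log2 ratio of the 79 endosomal members was 0.33, 0.40 and 0.24 at day 7 (arrays A, B and C) and -0.17, -0.08 and 0.04 on the day 0 arrays. That of the 35 secretory members was 0.09, 0.13 and 0.14 at day 7 and -0.28, -0.31 and 0.13 at day 0. The day 7 and day 0 arrays did not overlap for the endosomal median, while for the secretory median day 0 array C lay among the day 7 arrays. On each array the endosomal median minus the secretory median was above 0 on 21 of 21 arrays of days 1 to 7 (0.10 to 0.54, median 0.28) and on 2 of 3 arrays of day 0 (-0.09, 0.11 and 0.23). By day the difference averaged 0.08 ± 0.16 at day 0, 0.17 ± 0.05 at day 1, 0.30 ± 0.08 at day 2, 0.29 ± 0.08 at day 3, 0.32 ± 0.06 at day 4, 0.34 ± 0.08 at day 5, 0.38 ± 0.14 at day 6 and 0.21 ± 0.09 at day 7 (SD, n = 3). Members are not replicates, so no test was made of it.

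At day 7, 24 endosomal members were higher and 1 lower than at day 0, a share of 31.6%, near the 27.6% of everything tested, with a median change of 0.41. Higher calls made up 14.6% of everything tested. Of the secretory members 4 were higher and 0 lower by limma, 11.4% with a median of 0.26. An unadjusted limma p under 0.05 was found in 6 of 35, against 40.8% of everything tested. The secretory median depended on day 0: it was -0.11 with the day 0 signs turned and -0.02 against the reference channel. The endosomal median was 0.29 with the day 0 signs turned.

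**Figure D2:**
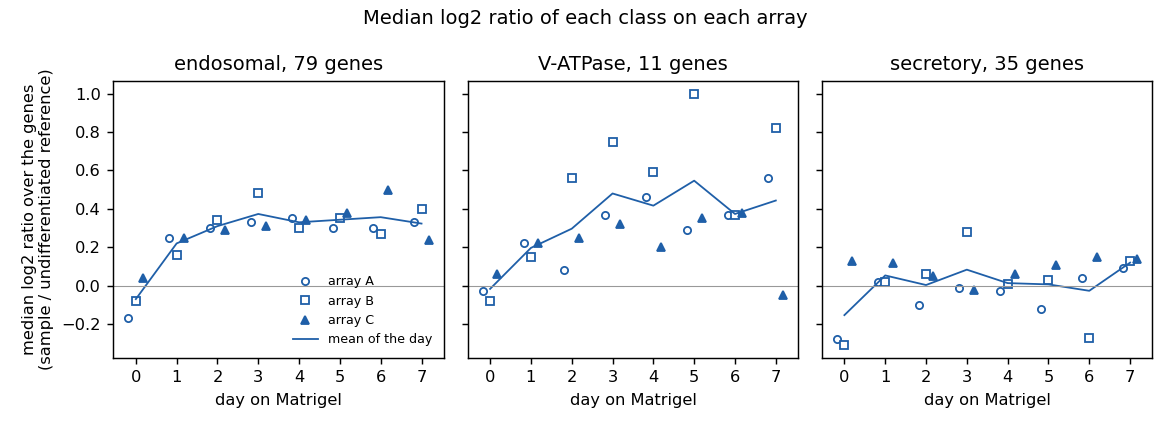
Median log2 ratio over the genes of each class on each array, against day on Matrigel, for 79 endosomal, 11 V-ATPase and 35 secretory genes. Symbols are the arrays A, B and C and lines join the means of the days. The endosomal arrays of days 1 to 7 all lie above 0.1, the secretory arrays scatter around 0, and V-ATPase array C of day 7 falls to -0.05.

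The V-ATPase moved unevenly among its subunits, with 3 of 11 (27.3%) higher at day 7 and 0 lower, where 27.6% of everything tested passed, 14.6% higher. Atp6v0d1, the V0 subunit that couples the membrane ring to the central stalk, had log2 ratios of 1.01, 1.29 and 1.59 at day 7 (arrays A, B and C), against -0.57, -0.36 and 0.31 on the day 0 arrays. All 3 day 7 arrays lay above every day 0 array, and the change was 1.5 ± 0.26 (SE, n = 3 each), with an adjusted p of 0.000389. It passed on each of days 2 to 7, and its value at day 1 was 0.77 ± 0.26 with an adjusted p of 0.063. Atp6v1d, a subunit of the rotating central stalk, had 0.16, 0.82 and 1.77 at day 7 and -0.84, -0.81 and 0.06 at day 0. The groups did not overlap, but array C was highest on each of days 4 to 7, and the change of 1.45 ± 0.44 (adjusted p 0.0182) no longer passed without day 7 array C, at 1.02. Atp6v1g1, of the peripheral stalk, had 0.67, 1.33 and 0.24 at day 7 and -0.40, -0.74 and 0.11 at day 0, a change of 1.09 ± 0.26 with an adjusted p of 0.00512. With the day 0 signs turned, Atp6v1d and Atp6v1g1 were at 0.39 and 0.40 and did not pass.

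The other 8 subunits did not pass at day 7. The catalytic subunit gene Atp6v1a had 1.29, 1.89 and -0.05 at day 7 and -0.39, -0.17 and -0.12 at day 0, a value of 1.27 ± 0.52 with an adjusted p of 0.0725. The proteolipid gene Atp6v0b had 1.07, 1.76 and -0.52 at day 7, against -0.01, 0.08 and 0.76 at day 0, and the peripheral stalk gene Atp6v1e1 had 0.76, 1.33 and -0.35 against -0.82, -0.33 and 0.24. In all 3 genes array C was the low array of day 7 and arrays A and B were above 0.7. Atp6v1e1 was higher than day 0 at days 2 and 3, by 1.27 ± 0.37 and 1.33 ± 0.37, with adjusted p of 0.0251 and 0.0139. The V1 gene Atp6v1c1 had 0.56, 0.40 and 0.57 at day 7 and 0.23, 0.07 and 0.18 at day 0, groups that did not overlap. Its value was 0.35 ± 0.17 with an adjusted p of 0.132 in limma, but its 2 features went opposite ways, at -0.29 and 1.31. Of the 3 features of Atp6v1a, 1 also went the other way, at -0.16. Atp6v1b2, a non-catalytic V1 subunit gene, had 0.31, -0.08 and -0.12 at day 7 and 0.26, 0.35 and 0.00 at day 0. The a4 gene Atp6v0a4, whose product is known from kidney and inner ear, had -0.52, -0.04 and 0.32 at day 7 and 0.41, 0.16 and -0.02 at day 0. Both overlapped with day 0. The small V0 subunit gene Atp6v0e had -0.55, 0.26 and -0.18 at day 7, against -0.03, -0.05 and -0.09 at day 0, and was lower than day 0 at day 6, by -0.87 ± 0.28, where array B stood at -1.74. Its paralog Atp6v0e2 had 0.24, 0.18 and -0.14 at day 7 and 0.09, -0.08 and -0.11 at day 0. The median over the 11 subunits at day 7 was 0.49, and 1.02 without day 7 array C. At day 1 limma called 0 of 11, with 2 at an unadjusted p under 0.05, against 24.5% of everything tested. Atp6v0a1 had values on 6 arrays and was not tested.

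**Figure D3:**
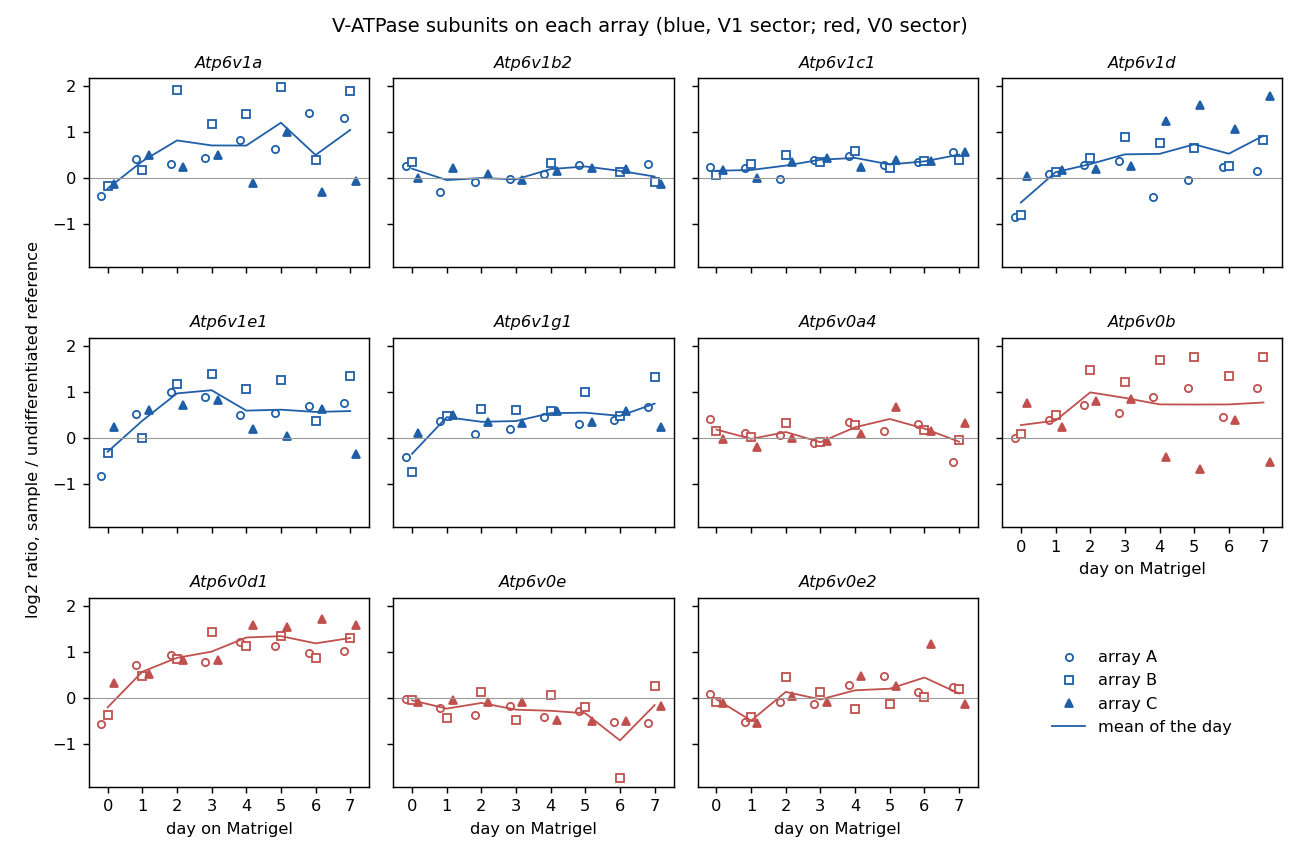
Log2 ratio of sample over undifferentiated reference for each of the 11 tested V-ATPase subunits on each array, against day on Matrigel. Blue panels are V1 and red panels V0 subunits, symbols are arrays A, B and C, and lines join the means of the days. Atp6v0d1 climbs with all 3 arrays together, whereas in Atp6v1a and Atp6v0b arrays B and C separate from day 4 on, C at or below 0 at days 4 and 7.

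The promoter of Atp6v0d1 is shown because it is the one of the 5 V-ATPase or coat members with the largest late against early values that holds a searched motif. It is the RefSeq window of GRCm38.p6 at chr8:105566015-105566314, minus strand, around the gene start, with the E-box core CACGTG in capitals, 3 bases before the start.
Atp6v0d1: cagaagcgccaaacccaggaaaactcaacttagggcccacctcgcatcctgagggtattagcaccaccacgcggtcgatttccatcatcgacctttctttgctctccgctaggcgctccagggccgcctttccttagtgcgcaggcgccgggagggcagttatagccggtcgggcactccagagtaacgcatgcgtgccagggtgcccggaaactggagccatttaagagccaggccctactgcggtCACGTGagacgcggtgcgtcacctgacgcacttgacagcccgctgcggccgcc
CACGTG is the core to which bHLH factors such as those of the MiT family bind in lysosomal genes, as background. It was found in 4 of 9 V-ATPase promoters (44.4%), in Atp6v0b, Atp6v0d1, Atp6v0e and Atp6v1a, in 25 of 167 member promoters and in 7.15% of 32851 promoters of the same length. At day 7, 5 of 19 tested members with the motif passed (median change 0.49) and 23 of 93 without it (median 0.29), shares close to each other.

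Among the endosomal Rab GTPases 6 of 14 were higher at day 7 and 0 lower, where 14.6% of everything tested was higher and 13% lower. Rab31, which acts between the trans-Golgi network and endosomes, had 1.23, 1.21 and 1.86 at day 7 (arrays A, B and C) and -0.13, -0.28 and 0.11 on the day 0 arrays. Its arrays of days 1 to 7 all lay above its day 0 arrays, and the change was 1.53 ± 0.26 with an adjusted p of 0.000312. Rab20, a Rab of endosomes and phagosomes, had 1.48, 2.08 and 0.73 at day 7 and -0.69 and -0.59 on day 0 arrays A and B, with no value on day 0 array C. The change of 2.07 ± 0.37 (adjusted p 0.00068) was the largest of the 34. It was 0.79, and did not pass, with the day 0 signs turned. Rab32, of lysosome-related organelles, had 1.16, 0.71 and 1.82 at day 7 and 0.18 and -0.42 on day 0 arrays A and C, a change of 1.35 ± 0.38. Rab22a, of early endosomes, had 0.71, 0.84 and 1.04 at day 7 and -0.13, -0.12 and -0.09 at day 0, a change of 0.97 ± 0.23. Rab11a, the recycling endosome Rab that serves the canalicular surface in hepatocytes, was higher by 0.96 ± 0.22 (adjusted p 0.0037), and passed on days 2 to 7. Rab14 was higher by 0.71 ± 0.20, but its day 7 values of 0.40, 0.40 and 0.15 were low, and with the day 0 signs turned it stood at -0.08. The early endosome Rabs Rab5a, at 0.66 ± 0.26 (adjusted p 0.0609), and Rab5c, at 0.24 ± 0.61, did not pass, nor did the late endosome Rab9 at 1.09 ± 0.46.

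ESCRT-III had the highest share of members past the threshold of the groups with more than 5 genes tested. At day 7, 5 of 8 were higher and 1 lower, where 14.6% of everything tested was higher and 13% lower. Its subunits assemble into filaments that pinch vesicles into endosomes and close membrane necks. Chmp1b was higher by 1.47 ± 0.30 (adjusted p 0.00127), with values of 0.54, 0.80 and 1.73 at day 7 and -0.45, -0.54 and -0.35 at day 0. Chmp4b, the main filament subunit, had 0.75, 0.88 and 1.74 at day 7 and 0.13, 0.11 and -0.10 at day 0, a change of 1.07 ± 0.30. Chmp2b was higher by 1.39 ± 0.41 and Chmp7 by 0.89 ± 0.29. In Chmp1b, Chmp2b and Chmp4b array C was the highest at day 7, and Chmp2b and Chmp4b no longer passed without it. Chmp5 was higher by 1.0 ± 0.28, from values of 0.58, 0.68 and 0.05 at day 7 and -0.82, -0.74 and -0.12 at day 0. With the day 0 signs turned it was at -0.13, so its call rests on the low day 0 arrays. Chmp1b, Chmp2b and Chmp7 were then at 0.57, 0.54 and 0.72 and did not pass, while Chmp4b did. Chmp1a, the paralog of Chmp1b, was the single member that was lower at day 7. It had -0.35, -0.61 and -1.21 at day 7 and 0.35, 0.21 and -0.07 at day 0, groups without overlap, and its change was -0.89 ± 0.32 with an adjusted p of 0.0424. It did not pass without day 7 array B, at -0.95, or C, at -0.64, nor with the day 0 signs turned, at -0.56. Chmp2a and Chmp6 were at -0.30 ± 0.23 and 0.05 ± 0.25. Vps4b, one of the ATPases that take the filaments apart, was higher by 1.40 ± 0.28, with an adjusted p of 0.00114, and its paralog Vps4a was at -0.42 ± 0.35.

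Of the 23 Vps proteins tested, 6 were higher at day 7 and 0 lower, where 27.6% of everything tested passed, 14.6% higher. By limma 9 had an unadjusted p under 0.05, against 40.8% of everything tested. With both directions counted together, both shares lay near the background. Vps35l, a subunit of the retriever complex that recycles integrins and other receptors, had 1.19, 1.10 and 2.08 at day 7 (arrays A, B and C) and -0.21, -0.50 and -0.24 on day 0 arrays. The change was 1.77 ± 0.32, with an adjusted p of 0.000534, and it rested on 2 features. Vps26c, another retriever subunit, was higher by 1.17 ± 0.32. Vps26a, of retromer, had 1.06, 0.91 and 1.19 at day 7 and -0.28, -0.42 and -0.30 at day 0, a change of 1.39 ± 0.21 with an adjusted p of 0.000102. It rested on 3 features, 1 of which was high on the A arrays of days 4 to 6 (1.62 to 2.06) and not on the C arrays (-0.34 to 0.01). The other retromer subunits tested, Vps29 and Vps26b, were at 0.49 ± 0.22 (adjusted p 0.101) and -0.39 ± 0.38. Vps50, of the endosome tethering complex EARP, was higher by 1.34 ± 0.31, and Vps41, of the lysosome tether HOPS, by 1.04 ± 0.29. Of 4 features of Vps41, 1 went the other way, at -1.21. The other HOPS genes tested, Vps11, Vps16, Vps33a and Vps39, were at 0.23 to 0.77 and did not pass at day 7. Vps11 passed on days 3 to 6, Vps39 on days 2, 3 and 6 and Vps33a on day 4.

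A promoter window of Vps26a is shown, chosen after its values were seen, as an example of the CACGTG core with GT before it and AC after it, the palindrome of the lysosomal CLEAR element. It is at chr10:62486756-62487055, minus strand, GRCm38.p6, from RefSeq, with the palindrome and a further CACGTG in capitals.
Vps26a: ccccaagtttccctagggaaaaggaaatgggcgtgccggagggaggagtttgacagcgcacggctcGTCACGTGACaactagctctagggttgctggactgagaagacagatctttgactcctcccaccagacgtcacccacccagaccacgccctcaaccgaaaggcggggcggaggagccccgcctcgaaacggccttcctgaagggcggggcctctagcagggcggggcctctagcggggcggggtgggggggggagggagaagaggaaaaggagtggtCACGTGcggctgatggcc
The palindrome, which contains CACGTG, was found in 6 of 90 endosomal promoter windows (6.67%), which belong to 78 genes. It was in 0 of 48 secretory and 0 of 9 V-ATPase windows, and in 0.326% of all promoters of that length. Vps26a counts with 2 windows among the 6, since its other window, at chr10:62486549-62486848, also held a palindrome. The 5 tested members that held it were Rab21, Rab5a, Vps16, Vps26a and Vps33a, and of these Vps26a passed at day 7.

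Sorting nexins, which bind phosphoinositides on endosomes, were higher in 5 of 16 cases at day 7 and lower in 0, although their median was 0.13. Of everything tested, 27.6% passed at day 7, 14.6% higher and 13% lower. Snx6, which works with Snx1 and Snx5 in retrieval from endosomes, had 1.21, 1.24 and 1.37 at day 7 and -0.34, -0.32 and -0.01 at day 0. The change of 1.5 ± 0.20 had the lowest adjusted p of the members, 5.88e-05, and the 3 arrays of day 7 lay close together. Its partners Snx1 and Snx5 were at 0.58 ± 0.31 and 0.49 ± 0.22 and did not pass at day 7, though Snx1 passed on days 2 and 3. Snx9 was higher by 1.58 ± 0.27 (adjusted p 0.000294), with 1.06, 1.31 and 1.83 at day 7 and -0.28, -0.31 and 0.06 at day 0. Its relative Snx33 was higher by 1.12 ± 0.26, with 1.55, 1.20 and 0.66 at day 7 and -0.27, 0.05 and 0.27 at day 0. Both carry an SH3 domain and act at clathrin-coated pits and the actin cytoskeleton. Snx10 and Snx4 were higher by 1.07 ± 0.29 and 0.94 ± 0.28. Among endosomal SNAREs 2 of 5 were higher at day 7: the late endosome syntaxin Stx7 by 1.35 ± 0.27 and the trans-Golgi syntaxin Stx16 by 0.82 ± 0.21. Vamp8 was at -1 ± 0.53. No adaptor subunit of 12 passed at day 7 by limma, with 2 at an unadjusted p under 0.05, against 40.8% of everything tested. The highest value was that of Ap2a2, at 1.07 ± 0.43 with an adjusted p of 0.068, and Ap2a2 passed on days 4 and 5.

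**Figure D4:**
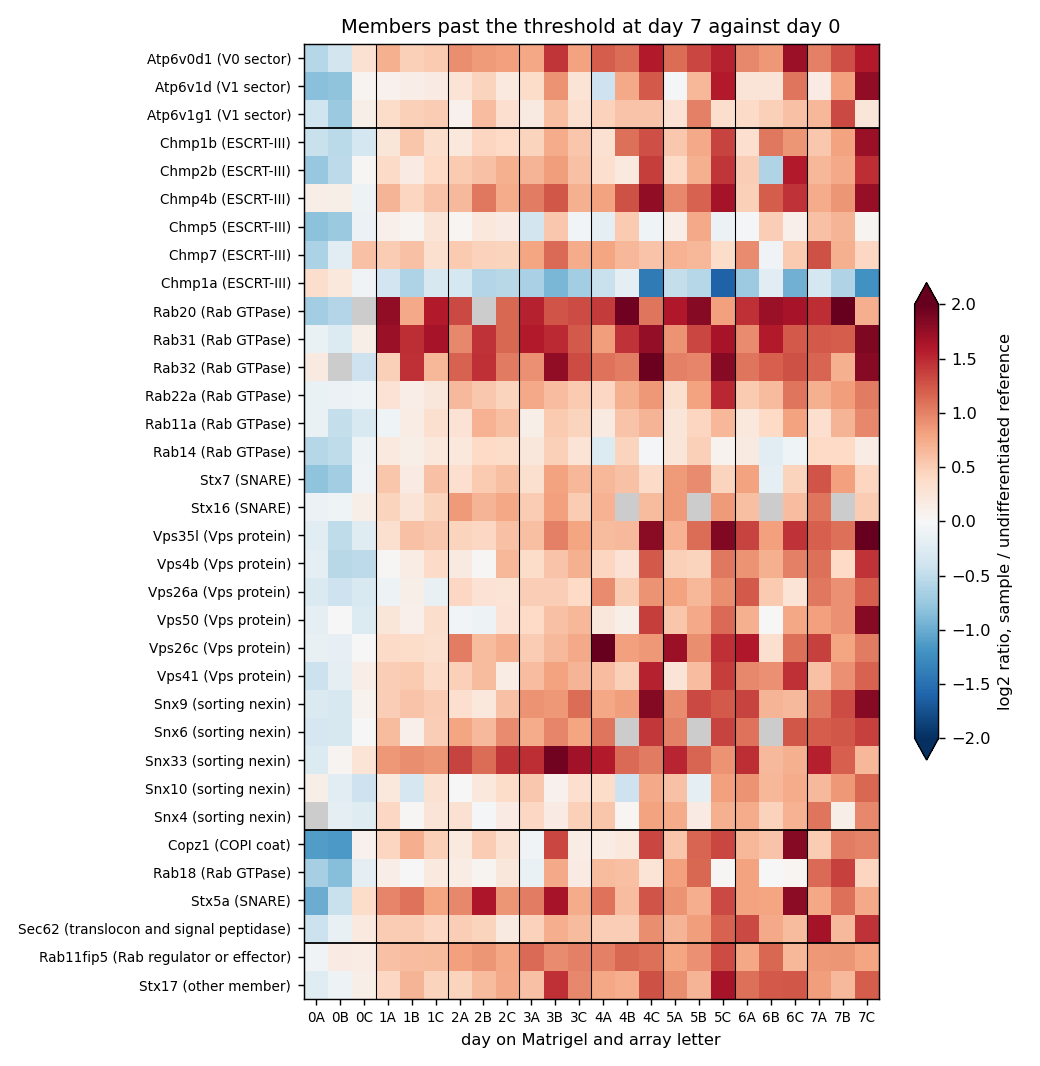
Log2 ratio of sample over undifferentiated reference for the 34 members past the threshold at day 7, one per row and grouped by class (V-ATPase, endosomal, secretory, other), on the 24 arrays in order of day and letter. Colours end at 2 in either direction and grey cells have no value. Day 0 arrays A and B are blue in many rows where day 0 array C is near white, Chmp1a is the one blue row, and the C arrays of days 4, 5 and 7 are the darkest of their days in many rows.

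Among secretory members single genes, rather than whole complexes, passed. Of the 5 COPI coat genes 1 was higher at day 7. Copz1, the zeta subunit, had 0.51, 1.03 and 1.00 at day 7 (arrays A, B and C) and -1.12, -1.15 and 0.09 on day 0 arrays, a change of 1.58 ± 0.41 with an adjusted p of 0.00798. With the day 0 signs turned it was at 0.12. The alpha subunit gene Copa had 0.55, 0.47 and 0.51 at day 7 and -0.47, -0.35 and 0.41 at day 0, a value of 0.65 ± 0.26 (adjusted p 0.0661). It passed at days 3 and 4. Copb2 had 0.56, -0.28 and 0.74 at day 7 and -0.17, -0.26 and -0.04 at day 0. Cope had -0.32, 0.43 and -0.58 at day 7, against -0.47, 0.23 and 0.18 at day 0, and Copg1 had 0.45, -0.16 and -0.53 against -0.24, -0.10 and 0.25. These last 3 overlapped with day 0.

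Of the 7 COPII genes limma called 0 at day 7, with 1 at an unadjusted p under 0.05, against 40.8% of everything tested. Their median was 0.37. Sec13, of the outer coat, had -0.92, -0.16 and -1.79 at day 7 and -0.60, -0.32 and 0.37 at day 0, a value of -0.77 ± 0.37 with an adjusted p of 0.122. Its partner Sec31a had 0.06, 0.21 and 0.32 at day 7 and -0.58, -0.24 and 0.30 at day 0. The scaffold gene Sec16a had 0.06, -0.07 and 1.22 at day 7 and -0.28, -0.59 and -0.09 at day 0, with array C above 1.2 on each of days 4 to 7 and the A and B arrays at most 0.33. The cargo-binding genes of the inner coat did not pass: Sec24c had 0.69, 0.26 and 0.50 at day 7, against -0.01, -0.10 and 0.13 at day 0, and Sec24d had -0.06, -0.46 and -0.72 against -1.07, -0.74 and -0.06. The inner coat GTPase activator Sec23a had -0.06, -0.10 and -0.06 at day 7, against -0.04, -0.18 and -0.39 at day 0, and Sec23ip, which binds it, had -0.23, 0.11 and 0.47 against -0.05, -0.48 and -0.48.

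At the ER translocon and signal peptidase, Sec62 was higher and 4 other genes did not pass. Sec62, which aids translocation and is also a receptor for autophagy of the ER, had 1.67, 0.65 and 1.45 at day 7 and -0.43, -0.15 and 0.20 at day 0, a change of 1.39 ± 0.25 with an adjusted p of 0.000587. Its partner Sec63 had 0.23, -0.52 and -0.22 at day 7 and -0.55, -0.12 and -0.05 at day 0. The channel paralog Sec61a2 had 0.65, 0.11 and 0.07 at day 7 and -0.16, -0.30 and 0.01 at day 0, a value of 0.43 ± 0.30. The signal peptidase genes Sec11a and Sec11c were at 0.02 ± 0.25 and -0.33 ± 0.35, Sec11a with 0.35, 0.35 and -0.24 at day 7 against -0.13, 0.25 and 0.28 at day 0, and Sec11c with -0.53, -0.19 and 0.39 against 0.09, 0.43 and 0.14.

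Stx5a, the syntaxin of ER to Golgi transport, was the secretory SNARE that changed. It had 0.78, 1.10 and 0.75 at day 7 and -0.99, -0.44 and 0.37 at day 0, a change of 1.23 ± 0.34 with an adjusted p of 0.0104. Among secretory Rabs, Rab18, of the ER and lipid droplets, was higher by 1.55 ± 0.31, with 1.14, 1.37 and 0.44 at day 7 and -0.66, -0.85 and -0.19 at day 0. With the day 0 signs turned it was at 0.41 and did not pass. The ER to Golgi Rabs Rab1a and Rab2a were at 0.51 ± 0.25 and 0.59 ± 0.28 (adjusted p 0.126 and 0.124), and Rab2a passed at day 6. Rab3b, a Rab of regulated exocytosis, was lower than day 0 at days 1, 2, 3, 4 and 6, by -1.14 to -1.63. At day 7 it had -0.09, 0.20 and -0.22, against 0.76, 0.90 and 0.32 at day 0, and a value of -0.70 ± 0.37 that did not pass. All day 0 arrays of Rab3b lay above 0, so with their signs turned each fall would be smaller or become a rise. At day 1 Rab3b was then at -0.31 and did not pass (limma adjusted p 0.729). Against the reference channel its day 1 value was -0.97 and passed. The Arf genes Arf2, Arf3 and Arf4 were at -0.64, 0.42 and -0.20 at day 7, with Arf2 lower at day 2 (-1.03 ± 0.35) and Arf4 at day 6 (-1.06 ± 0.32). Of the 12 other members, Stx17, the syntaxin of autophagosomes, was higher by 0.98 ± 0.26 and Rab11fip5, a Rab11 effector, by 0.76 ± 0.17.

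A promoter window of Stx5a is shown, chosen after its values were seen, because it holds TGACGTGG, a form of the unfolded protein response element, in both orientations. It is at chr19:8741174-8741473, plus strand, GRCm38.p6, from RefSeq, with both matches in capitals.
Stx5a: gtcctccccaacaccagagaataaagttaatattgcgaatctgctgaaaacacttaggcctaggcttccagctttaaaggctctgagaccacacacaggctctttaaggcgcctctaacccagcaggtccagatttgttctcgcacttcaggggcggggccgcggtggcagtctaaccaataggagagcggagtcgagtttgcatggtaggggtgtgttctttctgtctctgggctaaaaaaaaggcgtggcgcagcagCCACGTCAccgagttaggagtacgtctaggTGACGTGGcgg
TGACGTGG was found in 4 of 48 secretory promoters (8.33%), those of Copb2, Sec23a, Sec24d and Stx5a, and in 0.676% of all promoters. Of these 4 genes Stx5a passed at day 7 and the others were at 0.13 to 0.50. Another window of Stx5a, at chr19:8741553-8741852, held none of the searched motifs. The ER stress element was found in 0 of 167 member promoters and in 0.119% of all. Promoters were in the table for 142 of 172 members, and both strands were searched.

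At day 1 the genes that had already moved were 5 endosomal and 3 secretory. Rab20 had 1.78, 0.77 and 1.59 at day 1 (arrays A, B and C), against -0.69 and -0.59 at day 0, a change of 2.02 ± 0.37 (adjusted p 0.00285). Rab31 had 1.73, 1.48 and 1.65 at day 1, against -0.13, -0.28 and 0.11, a change of 1.72 ± 0.26 with an adjusted p of 0.000511. At day 7 Rab20 and Rab31 differed from day 1 by 0.05 and -0.18, and neither difference passed. Stx5a had 0.98, 1.08 and 0.79 at day 1 and was higher by 1.31 ± 0.34. Copz1 had 0.43, 0.73 and 0.48 and was higher by 1.28 ± 0.41. Stx7 had 0.56, 0.16 and 0.58 and was higher by 0.95 ± 0.27. Snx33 had 0.87, 0.93 and 0.89 and was higher by 0.88 ± 0.26, and Snx6 had 0.64, 0.10 and 0.49 and was higher by 0.63 ± 0.20 (adjusted p 0.0496). Rab3b had -0.62, -1.29 and -0.99 at day 1, against 0.76, 0.90 and 0.32 at day 0, and was lower by -1.63 ± 0.37 (adjusted p 0.00874). In these 8 genes the day 1 and day 0 arrays did not overlap. Their day 0 values differed between arrays, and with the day 0 signs turned Copz1 and Stx7 were at -0.19 and -0.09. Of the 8 genes 2 then remained past the threshold, Rab31 and Snx33. Leaving out day 0 array A, B or C gave 3, 2 or 17 members. Leaving out day 1 array A, B or C gave 3, 5 or 4. Other settings gave more: 39 with arrays scaled to one spread, 30 with only days 1 and 0 fitted, 23 without the C arrays of days 4 to 7, 22 with day 0 array C turned and 18 against the reference channel.

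Few members changed further between the first and the last days on Matrigel, a comparison in which day 0 takes no part. At days 5 to 7 against days 1 to 3, 5 members were higher and 2 lower, against 7.74% of everything tested (3.51% higher and 4.23% lower). Snx6 had a lowest, median and highest value of 1.01, 1.24 and 1.37 over 7 late arrays and of 0.10, 0.74 and 0.98 over 9 early arrays. These did not overlap, and the change was 0.53 ± 0.12 with an adjusted p of 0.0188. Vps26a had 0.27, 0.91 and 1.23 on late and -0.14, 0.29 and 0.50 on early arrays, a change of 0.60 ± 0.12 (adjusted p 0.0072). Vps35l had 0.70, 1.19 and 2.08 on late and 0.32, 0.59 and 1.01 on early arrays, a change of 0.71 ± 0.19. Snx9, with 0.64, 1.23 and 1.83 on late and 0.21, 0.58 and 1.11 on early arrays, was higher by 0.53 ± 0.15, and Sec62, with 0.64, 0.83 and 1.67 against 0.18, 0.50 and 0.72, by 0.54 ± 0.15. Apart from Snx6, all of these overlapped.

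Ap2s1, the small subunit of the clathrin adaptor of the cell surface, was lower late, with -1.67, 0.13 and 0.84 on late and 0.44, 0.82 and 1.76 on early arrays, by -0.96 ± 0.29 (adjusted p 0.0459). The 3 late C arrays held its lowest values, between -1.67 and -0.38, while A and B arrays lay between -0.01 and 0.84. Sec14l2, a lipid transfer protein, had a lowest, median and highest value of -1.46, -0.16 and 0.19 over 8 late arrays and -0.19, 0.10 and 0.58 on early arrays, and its change was -0.52 ± 0.15 (adjusted p 0.0387). Its groups overlapped. V-ATPase subunits were called in 0 of 11 cases by limma, with 2 at an unadjusted p under 0.05, against 26.3% of everything tested. Their median was 0.17, and the endosomal and secretory medians were 0.00 and 0.05, against -0.021 over everything tested. Arrays of one letter within days 4 to 7 had correlated deviations (r 0.142 to 0.912), and with letter within period as a random block 0 members passed (14 at an unadjusted p under 0.05), the 7 genes having adjusted p of 0.218 to 0.409. With letter as a fixed block all 7 remained and 18 members passed. With arrays scaled to one spread the count was 1 higher and 3 lower. Snx6, Sec62, Snx9 and Vps35l then stood at 0.21, 0.27, 0.23 and 0.35 and did not pass, while Vps26a, at 0.43, did. Without the C arrays of days 4 to 7, Snx6 and Sec62, at 0.43 and 0.50, did not pass. With 1 feature per gene, Snx6 and Ap2s1 passed and the rest of the 7, Vps26a among them, did not. Leaving out single arrays gave 2 to 16 members: 2 without day 1 array A, day 2 array B, day 3 array A, day 5 array C or day 7 array C, and 16 without day 7 array B. Vps26a passed without each array in turn. The count was 3 without day 1 array B, day 2 array C or day 3 array C, and 4 without day 1 array C or day 2 array A.

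**Figure D5:**
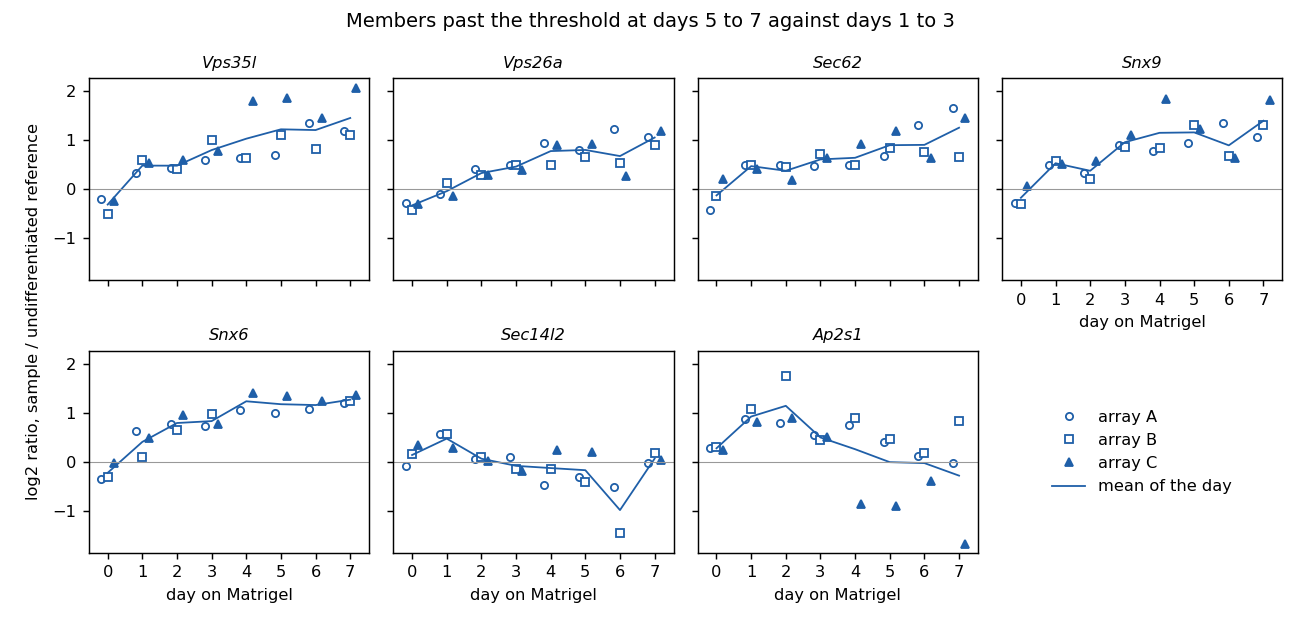
Log2 ratio of sample over undifferentiated reference on each array against day on Matrigel for the 7 members past the threshold at days 5 to 7 against days 1 to 3, from the largest rise (Vps35l) to the largest fall (Ap2s1). Symbols are arrays A, B and C and lines join the means of the days. Snx6 has its late arrays all above its early ones, while in Ap2s1 the C arrays of days 4 to 7 are below 0.

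Day 7 against day 1 gave 2 members, both higher, against 2.92% of everything tested (1.54% higher and 1.38% lower). Vps26a had 1.06, 0.91 and 1.19 at day 7 and -0.10, 0.12 and -0.14 at day 1, a change of 1.10 ± 0.21 with an adjusted p of 0.00673. Snx6 had 1.21, 1.24 and 1.37 at day 7 and 0.64, 0.10 and 0.49 at day 1, a change of 0.86 ± 0.20 with an adjusted p of 0.0238. Neither pair of days overlapped. One of the 2 was lost without day 1 array B or C or day 7 array A or C, and 4 members passed without day 7 array B. Snx6 did not pass with arrays scaled to one spread, at 0.51, and Vps26a did not with 1 feature per gene, at 0.94. By the moderated F-test of any change over the course, 21 members passed, against 16.3% of everything tested, and 10 or 7 did when day 0 array A or B was left out.

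Traffic genes that the symbol rule does not take were listed by role. Of 172 listed 105 were tested. At day 7, 19 were higher and 4 lower, where 27.6% of everything tested passed. At day 1, 8 were higher and 1 lower, where 10.9% passed, and late against early 3 were higher and 2 lower, where 7.74% did. With both directions counted together, none of these exceeds the background share. Higher calls alone made up 14.6% of everything tested at day 7, 4.99% at day 1 and 3.51% late against early. The higher counts of the listed genes lay above that share at day 7 and day 1 and below it late against early. Both V-ATPase accessory genes that passed were higher. Atp6ap2, also known as the prorenin receptor, had 2.04, 2.02 and 2.11 at day 7 (arrays A, B and C) and -1.21, -0.88 and 0.20 on day 0 arrays, a change of 2.68 ± 0.35 with an adjusted p of 2.5e-05. Atp6ap1, which helps to assemble the V0 sector, had 1.75, 0.96 and 0.83 at day 7 and -0.47, -0.58 and -0.05 at day 0, a change of 1.55 ± 0.28. In both genes all 3 arrays of day 7 lay above day 0. Both also passed at day 1, by 1.34 ± 0.35 and 1.0 ± 0.28, and late against early, by 0.90 ± 0.20 and 0.55 ± 0.16. The mean day 0 value of each lay below 0, so with the day 0 signs turned their changes at day 1 and day 7 would be smaller. Whether these would still pass is not given here. The late against early values do not use day 0. By group, 4 of 14 endosome and ESCRT genes were higher and 1 lower at day 7, and 4 of 42 ER to Golgi genes were higher and 1 lower. Spcs2, of the signal peptidase, was higher by 1.75 ± 0.33, Washc2, of the WASH complex on endosomes, by 1.72 ± 0.45, Yipf5 by 1.59 ± 0.34 and Arfgap3, an Arf GTPase activator of the Golgi, by 1.44 ± 0.25.

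The 35 members not tested had values on 1 to 21 arrays. Among them were Rab7, the late endosome Rab, with values on 4 arrays, the ER to Golgi Rab Rab1b with 17, and the SNAREs Stx6 and Vamp4 with 7 and 5. Of the 137 tested, 107 had a value on all 24 arrays. Of the 17 members past the threshold at day 7 that averaged more than 1 feature, 1, Vps41, had a feature of opposite sign. Of the 37 such members that did not pass, 17 had one.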

How the data were processed

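Log ratios from 24 two-colour arrays were used, 3 for each of days 0 to 7, in 24157 features. Per the labels, Cy5 held the sample and Cy3 the undifferentiated reference. The deposited values were read as log2 of Cy5 over Cy3. For base, direction, scanner, background correction and normalization, and for why cells are empty, the status is: not given in the sources used here. Features were named through the platform annotation: 13319 had 1 gene symbol, 589 had several and were left unnamed, and 13290 symbols were updated through Entrez IDs to a RefSeq table of GRCm38.p6. The number of arrays limits the precision. Values per array numbered 12328 to 22149.

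Each array was centred on its median and the features of a gene were averaged. The 5660 genes and 4979 unnamed features with at least 2 values on every day were fitted with limma 3.58.1 (R 4.3.3) as 8 day means over all arrays, with moderated 2-sided tests and Benjamini-Hochberg adjustment over all of them at 0.05. The ± values beside changes are standard errors, and arrays without a value drop out of a gene's fit. On simulated data for day 7 against day 0 (10639 features and genes, 200 changed), 24% of changes of log2 1 and 92% of log2 2 were recovered, with 5 false calls. Alternatives changed scaling, centring, filter, day 0 signs, the samples fitted, blocks by letter, and left out each array.

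Arrays that shared a letter deviated together within days 1 to 3 (r 0.194 to 0.441, median 0.288, against a median of -0.158 for unlike letters) and within days 4 to 7 (0.142 to 0.912, median 0.614, against -0.384). Between these periods (as low as -0.3) and with day 0 (as low as -0.544) they did not, so the letters were not taken to pair the days compared. The random block used letter within period (statmod 1.5.0, consensus correlation 0.493). Per-array values are given for the 6 largest rises and falls past the threshold at day 1, at day 7 and late against early, and for every tested V-ATPase, COPI, COPII and translocon gene. Up to 6 other traffic genes are named per comparison, and some further members beside their groups were chosen after their values were seen. The members and lists were chosen with earlier results of these data known. Summaries and figures used Python 3.11.15, pandas 2.3.3 and matplotlib 3.10.9.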

Additional observations from a re-analysis of the deposited data

Results flagged for a closer look

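Vps26a and Snx6 differed between day 7 and day 1 in their change from day 0, by limma's test of the difference, at 1.1 ± 0.21 (adjusted p 0.00673) and 0.86 ± 0.2 (adjusted p 0.0238). Vps26a is a retromer subunit and Snx6 a sorting nexin, both of retrieval from endosomes. Both were higher on 3 of 3 day 7 arrays than on any day 1 array.

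Ap3s1, a subunit of the AP-3 adaptor that carries cargo to lysosomes, lay on opposite sides of day 0. It had 0.14, 0.53 and 0.10 on the day 7 arrays, -0.63, -1.31 and -0.43 on those of day 1, and -0.39, -0.28 and -0.06 at day 0. Day 7 minus day 1 was 1.04, and this opposition was noticed from the arrays and not tested as such. It rests on the unsettled direction of the day 0 values, which overlap with those of day 7 once their signs are turned. Against day 0, Ap3s1 passed on none of the 7 days. In the limma fit of day 7 against day 1 its adjusted p was 0.0708.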

How the results depend on the processing

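Counts of members past the threshold moved with the setting, and the direction of a few genes turned with the day 0 signs. With all day 0 signs turned the count was 4 in place of 8 at day 1, with 2 of the 8 among them, and 9, 14, 17 and 18 at days 2, 3, 5 and 7 in place of 19, 33, 34 and 34, with 13 in place of 21 for the course. Copz1 and Stx7 at day 1 then stood at -0.19 and -0.09, and Chmp5 and Rab14 at day 7 at -0.13 and -0.08. Among the members past the threshold at days 2 to 6, 4, 3, 3, 2 and 3 also changed sign. Turning day 0 array C alone gave 22 at day 1. Scaling arrays to one spread gave 39 at day 1 and 39 at day 2, 4 late against early and 4 for day 7 against day 1. Requiring values on all 24 arrays gave 5 at day 1 and 1 for day 7 against day 1. Fitting only the groups compared gave 30, 39, 17, 17 and 16 at days 1, 2, 4, 5 and 6, and 0 for day 7 against day 1 (17 at an unadjusted p under 0.05 in limma). Dropping the late C arrays (days 4 to 7) gave counts of 23, 41 and 50 at days 1 to 3, 4 for day 7 against day 1 and 38 for the course. Against the reference channel they were 18, 51 and 57 at days 1, 4 and 6. With letter as a fixed replicate block they were 14 and 33 at days 1 and 2, 18 late against early and 6 for day 7 against day 1. With letter within period as a random block late against early had 0 (14 at an unadjusted p under 0.05). One feature per gene, an alternative chosen after seeing the data, gave 4 late against early. Leaving out single arrays gave 2 to 17, 9 to 23, 13 to 40, 17 to 41, 22 to 41, 20 to 38 and 26 to 40 members at days 1 to 7, 2 to 16 late against early, 1 to 4 for day 7 against day 1 and 7 to 24 for the course. The day 7 median of secretory members was -0.11 with day 0 signs turned and -0.02 against the reference channel (0.15 to 0.43 without single arrays). That of endosomal members was 0.29 with signs turned (0.31 to 0.47). That of V-ATPase members was 1.0 with day 0 array C turned and 1.02 without the late C arrays (0.34 to 1.02). The late against early medians were -0.05 to 0.08 (secretory), -0.03 to 0.03 (endosomal) and 0.14 to 0.24 (V-ATPase) without single arrays. The cause of these shifts was not tested. Of the values of single named genes at day 1, at day 7, late against early and for day 7 against day 1, 746 kept direction and side of the threshold and 182 kept direction only. The simulation changed 200 of 10639 genes and features, a far smaller share than the 27.6% that passed at day 7. Under Benjamini-Hochberg adjustment recovery depends on that share. The recovery of 24% at log2 1 therefore does not give the share of changes missed in these data.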
